A study of Mus musculus with 8 samples.

Results

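The genes described here encode 8 transcription factors that set the identity of hepatocytes: Hnf4a, Foxa1, Foxa2, Foxa3, Cebpa, Cebpb, Nr5a2 and Nr1h4. They were taken by symbol from a list of names, which was chosen with earlier results of these data known. They are 8 of the 21631 protein-coding genes that RefSeq places on the autosomes and X of mm10. All 8 were found there and in the RefSeq table of promoters. Open chromatin had been mapped by ATAC-seq, an assay that tags accessible DNA with the Tn5 transposase, in Hepa-1c1c7, an established mouse hepatoma line. The cells were grown in serum-containing Alpha-MEM and were kept for 72 h with potassium chromate, which carries chromium in its hexavalent form, at 0.1, 0.5 or 1 µM or without it (0 µM), with 2 libraries per dose. For each treated dose 1 list of regions was analysed, of 14401, 11130 and 15894 regions in order of dose. Each gene was searched from 50 kb before its start to 50 kb after its end, which gave 27 regions at 0.1 µM, 26 at 0.5 µM and 36 at 1 µM.

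Several limits hold for all values. Each list is shared by both libraries of its dose and is named together with the untreated cells, so all 3 lists share the control and none has a replicate error. No test between doses was possible. The sources used here do not give whether a listed region is more open than in the control, nor what a missing region means. The 1 µM libraries carry another label prefix than all others, which cannot be told apart from the dose. The score of a region is the authors' own whole number without a stated scale, and it served only to rank regions within 1 list, as a percentile.

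Hepatocyte identity is held by a small network of factors that bind one another's genes. HNF4α, LRH-1 (Nr5a2) and FXR (Nr1h4) are nuclear receptors. Hnf4a acts broadly on hepatocyte genes, Nr5a2 on bile acid and cholesterol genes, and Nr1h4 is the receptor for bile acids. The FOXA proteins are forkhead factors known as pioneers, since they bind sites in closed chromatin, and the C/EBP proteins are basic leucine zipper factors, of which C/EBPα favours differentiation and C/EBPβ responds to acute signals and injury.

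The promoters printed here are those at a gene's 5′-most start in the RefSeq promoter table that a listed region touched. For contrast, that of Cebpa, whose whole window held no region, is printed too. The annotated 5′ end of Nr1h4, which regions did span, has no start in that table and is not printed. Each run gives the 250 bases before the RefSeq start, 5′ to 3′ along the gene, from RefSeq on GRCm38.p6, the assembly of mm10. Capitals mark matches to any of 16 motifs searched on both strands. The Foxa2 run lies at chr2:148046970-148047219 on the minus strand, that of Cebpb at chr2:167688665-167688914 on the plus strand, that of Nr5a2 at chr1:136960449-136960698 on the minus strand and that of Cebpa at chr7:35119043-35119292 on the plus strand.
Foxa2: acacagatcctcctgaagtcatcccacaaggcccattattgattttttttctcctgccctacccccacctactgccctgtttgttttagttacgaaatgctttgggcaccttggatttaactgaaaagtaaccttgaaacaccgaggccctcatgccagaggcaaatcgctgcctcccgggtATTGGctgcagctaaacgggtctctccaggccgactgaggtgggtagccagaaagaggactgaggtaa
Cebpb: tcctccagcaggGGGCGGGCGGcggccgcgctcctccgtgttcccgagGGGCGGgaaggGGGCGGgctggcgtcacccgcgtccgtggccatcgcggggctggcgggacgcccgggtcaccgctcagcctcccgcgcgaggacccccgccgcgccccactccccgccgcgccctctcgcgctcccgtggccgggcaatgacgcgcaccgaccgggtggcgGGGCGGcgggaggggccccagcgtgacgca
Nr5a2: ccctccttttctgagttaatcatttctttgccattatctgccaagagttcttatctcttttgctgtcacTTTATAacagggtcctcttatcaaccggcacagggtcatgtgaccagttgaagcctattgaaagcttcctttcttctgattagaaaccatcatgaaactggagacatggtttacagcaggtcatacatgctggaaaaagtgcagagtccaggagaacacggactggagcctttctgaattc
Cebpa: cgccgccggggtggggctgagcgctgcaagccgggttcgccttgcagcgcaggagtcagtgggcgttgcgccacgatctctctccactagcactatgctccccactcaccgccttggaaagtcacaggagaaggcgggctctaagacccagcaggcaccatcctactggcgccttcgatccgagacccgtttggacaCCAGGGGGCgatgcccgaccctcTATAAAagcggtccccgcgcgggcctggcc

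Listed regions covered 135 of these 250 bases of Foxa2 at 0.1 µM and 242 at 0.5 µM, and none at 1 µM. For Cebpb they covered 202 bases at 1 µM and none at the lower doses. For Nr5a2 they covered 136 bases at 1 µM and none at the lower doses. The capitals in Foxa2 are the letters ATTGG, the reverse complement of CCAAT (the NF-Y box, present in 37.4% of all promoters of the table). Those in Cebpb are 5 copies of GGGCGG (the GC box, 35.7%), the first of which overlaps the next. Those in Nr5a2 are the reverse complement of TATAAA (the TATA box, 13.6%), and those in Cebpa are CNAGGNGGC (part of the CTCF core, 8.38%) and TATAAA. The match of the TATA box began 181 bases before the Nr5a2 start and 30 bases before the Cebpa start, and that of the CTCF part 53 bases before the Cebpa start. A match is a description of the letters, not a bound site.

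The 300 bases from 250 before to 50 after each RefSeq start, 12 such promoters for the 8 genes, differed widely in composition. The promoter of Cebpb had 80.7% G and C and 50 CpG, and 99.3% of all promoters in the table had no more of either. The 5′-most promoter of Nr5a2 had 42.0% and 2 CpG. That of Cebpa had 67.3% and 29 CpG, and that of Foxa3 69.0% and 22, and no region touched either. The Foxa1 promoter had 62.3% and 26 CpG and was touched in no list. The Foxa2 promoter at chr2:148045899-148046198 had 64.0% and 23 CpG, and regions covered 237 of its bases at 0.1 µM, none at 0.5 µM and 102 at 1 µM. Of the Cebpb promoter, 202 bases were covered at 1 µM and none at the lower doses. Besides the motifs above, Foxa1 held the reverse complement of TGTTTAC (forkhead, 3.65% of promoters), Cebpb held TGACNNNGC (NRF2, 12.4%) and Foxa2 held the reverse complement of TNGCGTG (AHR, 5.07%). No member promoter held TGANTCA (AP-1, 7.81%), TGACGTCA (CRE, 1.79%), TTGCGCAA or TTGCNNNAA (C/EBP, 0.183% and 9.56%), TATTTAC (forkhead, 3.04%), CAAAGTCCA (HNF4, 0.475%), CAAGGTCA (NR5A, 1.56%), GGTCANTGA (inner part of the FXR repeat, 0.840%) or CACGTG (E box, 7.15%). The last letters of the NR5A pattern are the first of the FXR pattern, so such matches could overlap.

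Regions were spread unevenly over the 8 genes. In order of dose, the windows held 2, 2 and 3 regions for Hnf4a, 2, 0 and 4 for Foxa1, 7, 6 and 5 for Foxa2, 1, 1 and 2 for Foxa3, 0, 0 and 0 for Cebpa, 5, 11 and 12 for Cebpb, 4, 1 and 4 for Nr5a2, and 6, 5 and 6 for Nr1h4. Foxa2, Cebpb and Nr1h4, singled out after the counts were seen, held 18 of 27, 22 of 26 and 23 of 36 regions. A region lay in the window of 7, 6 and 7 of the 8 genes, where 47.0%, 46.4% and 54.7% of all protein-coding genes had one by the same rule. The median was 3, 1.5 and 4 regions per window, and over all protein-coding genes 0, 0 and 1.

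**Figure D1:**
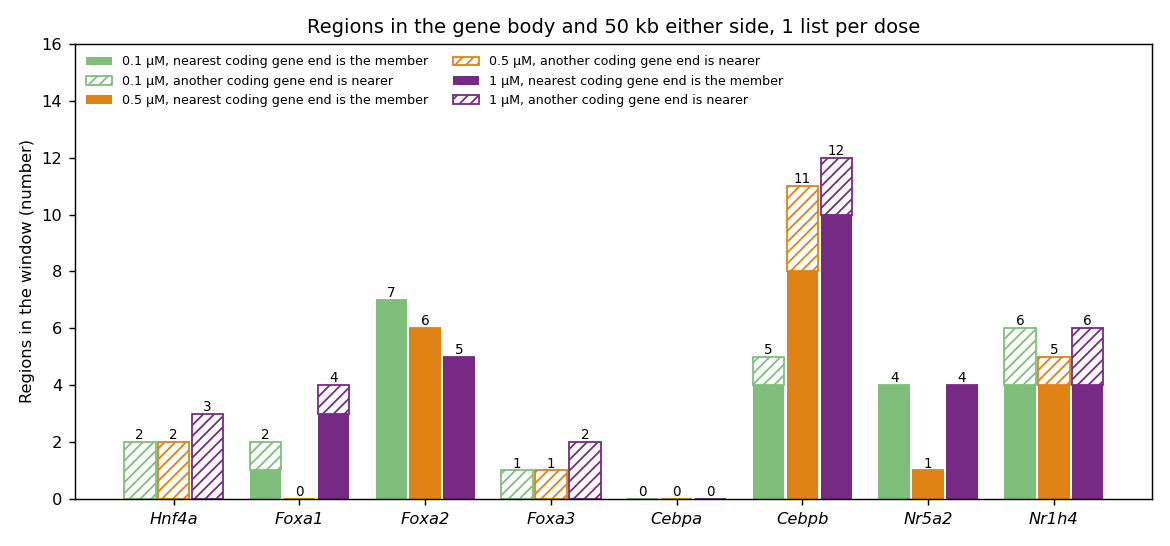
Number of regions in the gene body and 50 kb either side for each gene and list (1 list per dose, no error). Filled bars are regions whose nearest protein-coding gene end belongs to the gene named, hatched bars are nearer to another gene: Cebpb has 5, 11 and 12 regions, Cebpa none, and all regions of Hnf4a and Foxa3 are hatched.

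Allowing for window length, the 8 windows together held 2.48, 2.39 and 3.30 regions per 100 kb, against 0.699, 0.565 and 0.799 in the merged windows of all protein-coding genes. Without Foxa2, Cebpb and Nr1h4 the values were 1.28, 0.568 and 1.85. The density of the 8 thus came mostly from those genes, which were picked by their counts, so that a drop without them was fixed in advance. At 0.5 µM the other 5 genes stood close to the background. At 0.1 and 1 µM they stood above it, with 1.28 and 1.85 against 0.699 and 0.799. The chromosome was set beside each value because densities differed between chromosomes. On chromosome 2, the windows of Hnf4a, Foxa2 and Cebpb held 3.77, 5.11 and 5.38 regions per 100 kb, against 0.724, 0.692 and 0.878 for all windows of that chromosome. On chromosome 10, Nr1h4 had 3.34, 2.79 and 3.34 against 0.586, 0.427 and 0.715. On chromosome 7, Foxa3 and Cebpa together had 0.470, 0.470 and 0.939 against 0.636, 0.515 and 0.754, below the level of their chromosome at 0.1 and 0.5 µM and above it at 1 µM. On chromosome 1, Nr5a2 had 1.84, 0.459 and 1.84 against 1.13, 0.973 and 1.25, and on chromosome 12 Foxa1 had 1.86, 0 and 3.72 against 0.406, 0.226 and 0.453.

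**Figure D2:**
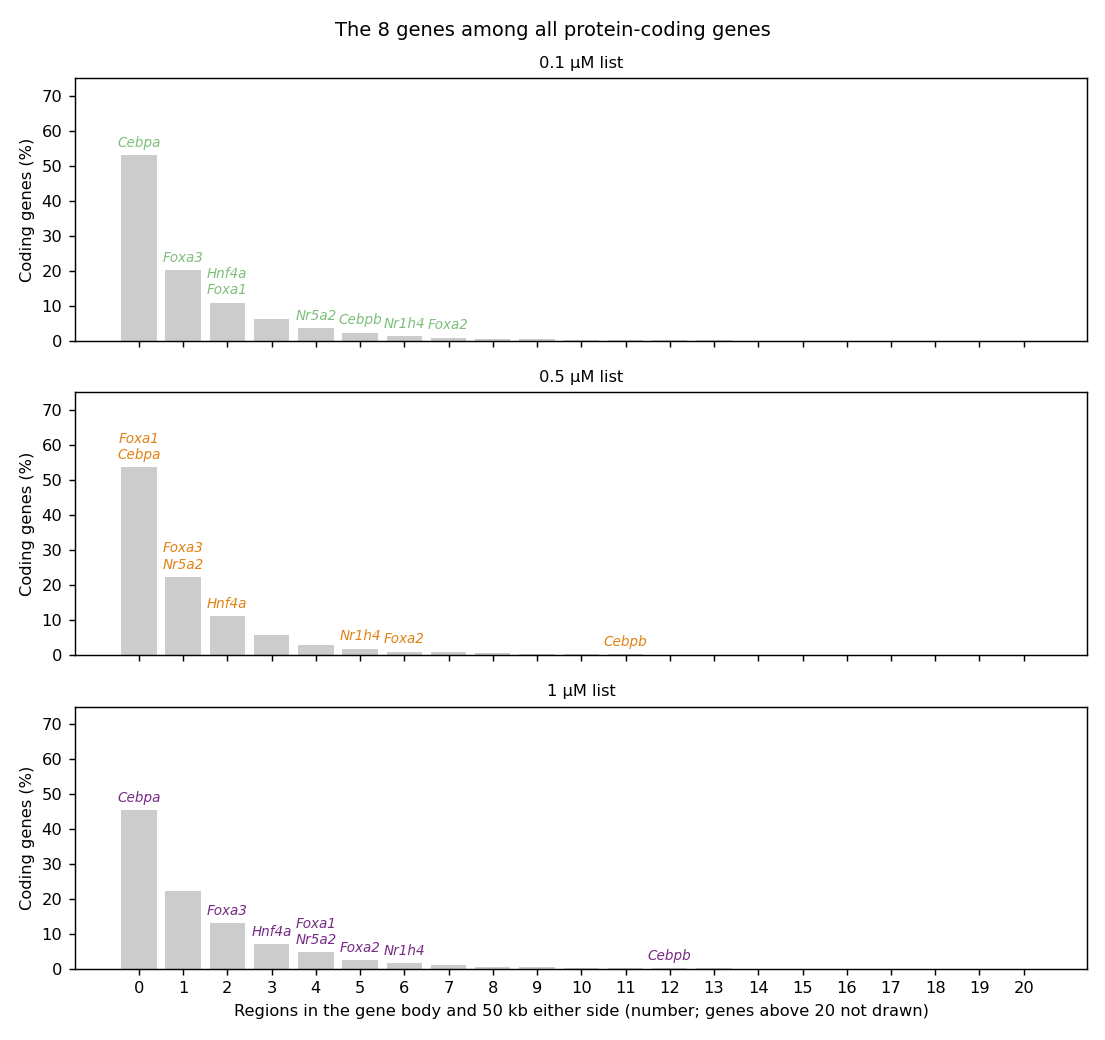
Share of protein-coding genes (vertical axis, %) by their number of regions in the gene body and 50 kb either side (horizontal axis), 1 panel per list, with the 8 genes named above their own count. Cebpb at 0.5 and 1 µM stands far to the right, with 11 and 12 regions, while Cebpa shares the leftmost bar with 53.0%, 53.6% and 45.3% of genes.

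Fewer genes had regions in their own body or at their ends. A region touched the body of 4, 3 and 5 of the 8 genes in order of dose (24.6%, 22.5% and 28.3% of all protein-coding genes). A region midpoint lay within 1 kb of either gene end in 3, 3 and 4 genes (19.1%, 18.4% and 22.4%). These were Foxa2, Cebpb and Nr1h4 at every dose, and Nr5a2 also at 1 µM. A region touched a RefSeq promoter of 1, 1 and 3 genes (18.9%, 17.8% and 22.3% of the 17274 protein-coding genes in the promoter table), namely Foxa2 at every dose and Cebpb and Nr5a2 at 1 µM.

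**Figure D3:**
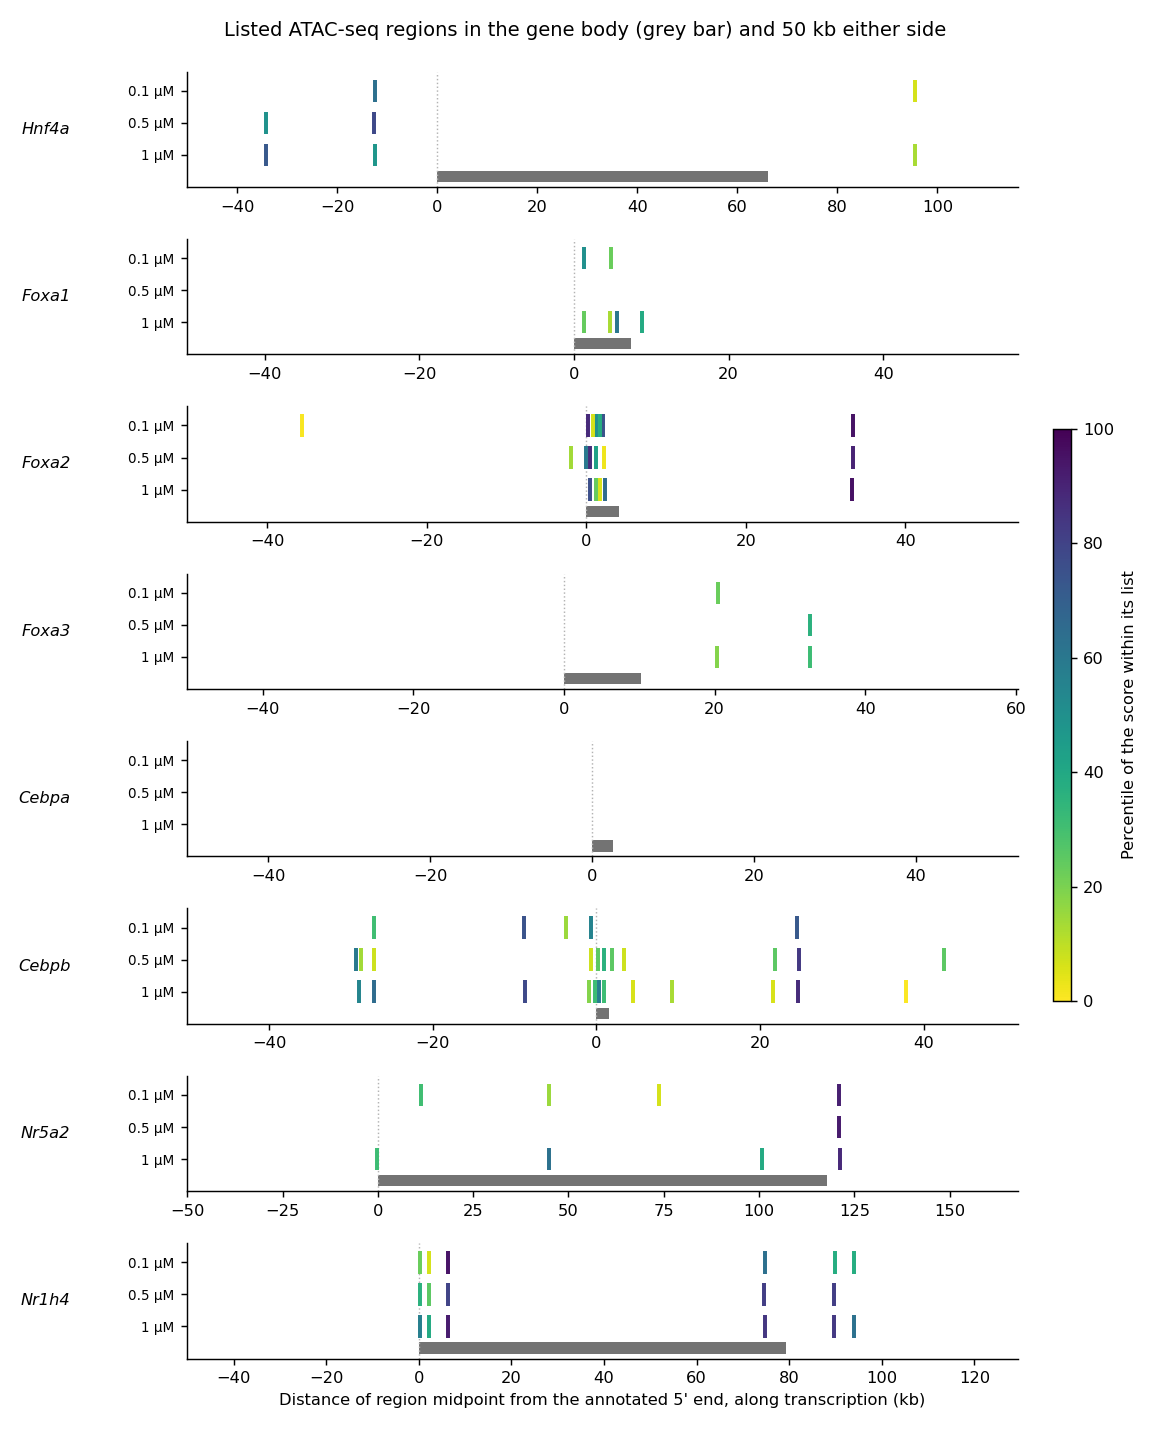
Position of every region midpoint relative to the annotated 5′ end of each gene (horizontal axis, kb along transcription; grey bar: gene body), 1 row per list, coloured by the percentile of the authors' score within the list. Regions of Foxa2, Nr1h4 and Cebpb crowd at the 5′ end, the darkest marks include one 33.4 kb from the 5′ end of Foxa2 and one past the 3′ end of Nr5a2, and the body of Hnf4a is empty.

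Among the forkhead genes, Foxa2 (chr2:148042877-148046969, minus strand), needed for liver specification together with Foxa1, carried regions over the first part of its short body at every dose. The body is 4.09 kb long, and regions touched it 5 times at 0.1 µM, 4 times at 0.5 µM and 4 times at 1 µM. At 0.1 µM a region of 796 bp at chr2:148046309-148047104 spanned the 5′ end (score 32, percentile 88.0). At 0.5 µM the same stretch was given as 2 regions, chr2:148046318-148046638 (score 24, percentile 87.3) and chr2:148046731-148047211 (score 12, percentile 59.5), of which the second spanned the 5′ end. At 1 µM a region of 719 bp at chr2:148046191-148046909 (score 23, percentile 75.6) lay inside the body. A further region at 0.1 µM, chr2:148046029-148046234 (score 5, percentile 6.48), was centred 837 bp inside the 5′ end. The 5′ part of the gene was thus listed at all doses, with borders that differed between lists.

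Further regions of Foxa2 lay over its internal RefSeq starts. In the 3 promoters of the gene, regions covered 185, 237 and 119 of 300 bases at 0.1 µM, 292, 0 and 160 at 0.5 µM, and 0, 102 and 143 at 1 µM, from the 5′-most start inward. The innermost start was the only one whose promoter was touched in every list. Regions centred 2.15, 2.19 and 2.37 kb inside the gene scored 19, 4 and 18 (percentiles 74.5, 2.59 and 65.0).

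The best ranked region of the Foxa2 window lay downstream of the gene. It was placed at chr2:148013207-148013899 at 0.1 µM, chr2:148013248-148013858 at 0.5 µM and chr2:148013379-148013864 at 1 µM, 33.4, 33.4 and 33.3 kb from the 5′ end and 29.3 kb from the 3′ end. Its scores of 53, 28 and 66 ranked at percentiles 95.3, 90.4 and 95.7. No other protein-coding gene reached into the window, and Foxa2 was the nearest one. An end of 9030622O22Rik, a long noncoding RNA gene, lay 26960, 26960 and 26891 bp from the region midpoint. Only distances to gene ends were taken for noncoding genes, so whether that gene spans the region was not determined. The lists also gave a lone region of score 6 at 0.5 µM, 1.87 kb before the 5′ end, and one of score 4 at 0.1 µM, 35.6 kb before it. Of all protein-coding genes, 2.61%, 2.88% and 7.65% had at least as many regions as Foxa2 in the same kind of window.

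**Figure D4:**
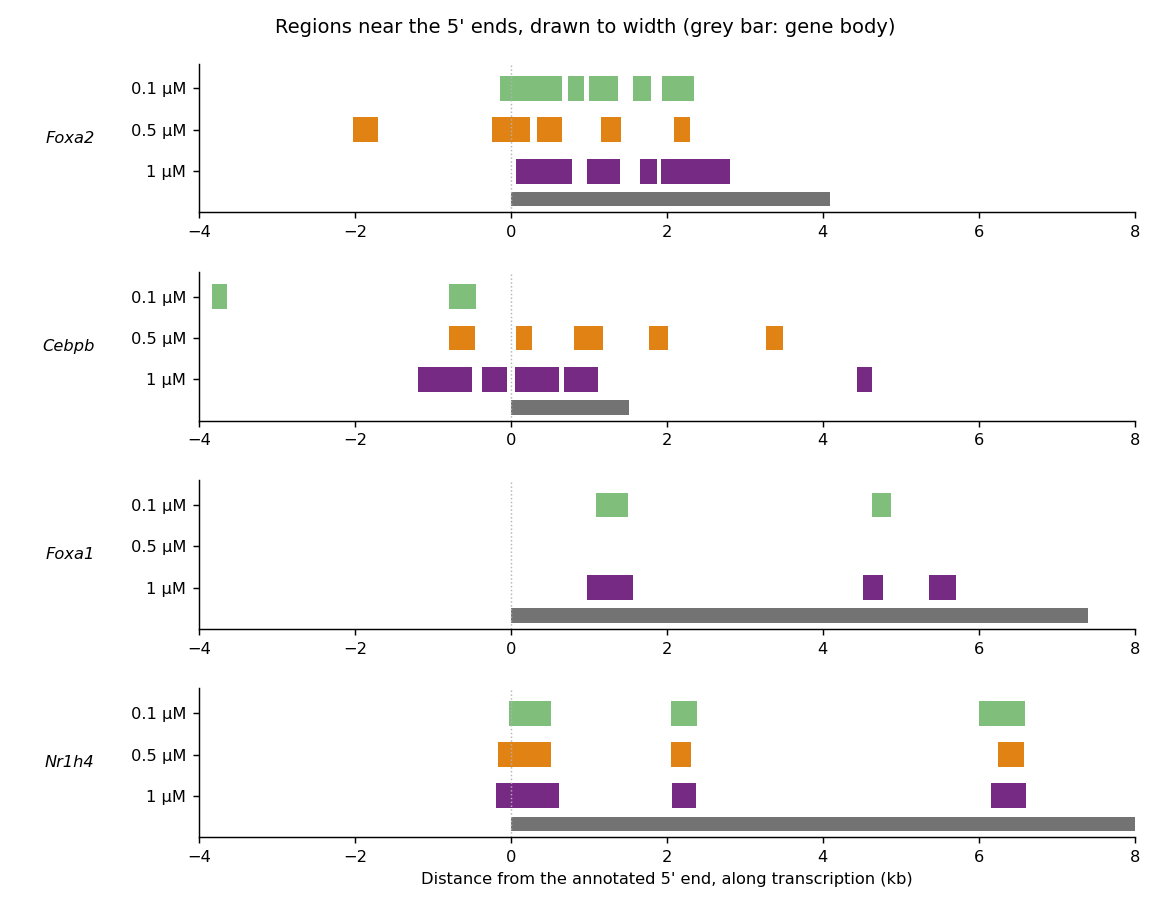
Regions drawn to width from 4 kb before to 8 kb after the annotated 5′ end (horizontal axis, kb; grey bar: gene body), 1 row per list, for Foxa2, Cebpb, Foxa1 and Nr1h4. Regions of Foxa2 and Nr1h4 recur at each dose, Cebpb has regions over its body at 0.5 and 1 µM only, and Foxa1 has none at 0.5 µM.

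Foxa1 (chr12:57540628-57548029, minus strand), the second pioneer factor, had 2 regions at 0.1 µM, none at 0.5 µM and 4 at 1 µM. A region at chr12:57546523-57546943 at 0.1 µM (score 11, percentile 50.3) and at chr12:57546462-57547051 at 1 µM (score 8, percentile 23.8) was centred 622 and 645 bp before the RefSeq start. The start of Ttc6, a neighbour on the other strand, lay 29 and 52 bp from its midpoint, so it cannot be given to Foxa1 alone. A site in the body was listed at 0.1 µM (chr12:57543160-57543400, score 7) and at 1 µM (chr12:57543263-57543514, score 6). At 1 µM there were also regions at chr12:57542323-57542668 (score 16) and, 1.42 kb past the 3′ end, at chr12:57539109-57539307 (score 10). None ranked above percentile 60.3. The 0.5 µM list, in which Foxa1 had no region, was the shortest.

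Foxa3 (chr7:19013283-19023539, minus strand), the forkhead gene expressed mainly in mature endoderm, had no region in its body at any dose, and its window held 6 other protein-coding genes. The region at 0.5 µM (chr7:18990648-18991213, score 8) and a matching one at 1 µM (chr7:18990559-18991132, score 9) lay 309 and 394 bp from an end of Mypop. Those at 0.1 µM (chr7:19002993-19003278, score 7) and 1 µM (chr7:19002940-19003447, score 7) lay 922 and 864 bp from an end of Irf2bp1, which encodes a corepressor. All regions of the window were therefore nearer to other genes than to Foxa3.

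Cebpb (chr2:167688915-167690432, plus strand) had the most regions of the 8 genes at 0.5 and 1 µM. Its window held 5 regions at 0.1 µM, 11 at 0.5 µM and 12 at 1 µM, although the 0.5 µM list was shorter than that of 0.1 µM. At least as many were found for 6.21%, 0.407% and 0.536% of protein-coding genes. The difference between 5 and 11 or 12 has no replicate error against which to set it. Of its 28 regions in all lists, 18 ranked below percentile 50 of their list.

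Around the 5′ end of Cebpb the lists differed in extent. A region before the start was given at every dose, at chr2:167688127-167688463 (score 12), chr2:167688120-167688453 (score 5) and chr2:167687725-167688417 (score 7), centred 620, 628 and 844 bp upstream. At 1 µM another, at chr2:167688548-167688866 (score 9), was centred 208 bp upstream and covered the GC-rich promoter printed above. The intronless gene of 1.52 kb was touched by no region at 0.1 µM and by 2 each at 0.5 and 1 µM. Those at 0.5 µM were chr2:167688975-167689190 (score 7) and chr2:167689724-167690090 (score 8). Those at 1 µM were chr2:167688965-167689538 (score 15) and chr2:167689597-167690038 (score 9). In the higher-dose lists regions thus lay on both sides of the start, and in the 0.1 µM list on the upstream side.

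Farther regions of Cebpb included the best ranked of its window at 0.5 and 1 µM. It lay downstream, at chr2:167713232-167713704, chr2:167713327-167713964 and chr2:167713227-167714004, 24.6, 24.7 and 24.7 kb from the 5′ end. Its scores of 18, 21 and 37 ranked at percentiles 72.3, 83.4 and 87.7. At 0.1 µM the best ranked was an upstream one, at chr2:167679965-167680275 (score 19, percentile 74.5), 8.79 kb before the gene, which the 1 µM list also held (chr2:167679983-167680363, score 25) and the 0.5 µM list did not. Regions 27.2 kb upstream at each dose lay within 217 bp of an end of Tmem189 and are closer to that gene. At 0.5 µM a region at chr2:167690683-167690923 (score 7) was centred 371 bp past the 3′ end. Its midpoint lay 44 bp from an end of A530013C23Rik, a long noncoding RNA gene. Regions 1.87 kb (0.5 µM) and 3.02 kb (1 µM) past the 3′ end were centred 1538 and 2690 bp from an end of A530013C23Rik, nearer than to Cebpb. The other downstream regions, such as those of score 7 and 5 about 21.8 and 21.6 kb from the 5′ end at 0.5 and 1 µM, ranked in the lower part of their lists.

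Cebpa (chr7:35119293-35121928, plus strand), which restrains growth and drives metabolic genes in hepatocytes, had no region in its window of 103 kb in any list. No other protein-coding gene lay in that window. Such an empty window was found for 53.0%, 53.6% and 45.3% of all protein-coding genes, so it is a common state. With 100 kb either side, all 8 genes had a region in the 1 µM list and the count at the lower doses stayed at 7 and 6, beside 66.0% of all protein-coding genes at 1 µM and 57.6% and 57.4% at 0.1 and 0.5 µM. Within this wider flank of Cebpa lies the 1 µM region at an end of Cebpg, another gene (chr7:35056510-35056736, score 7).

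Of the nuclear receptor genes, Nr1h4 (chr10:89454234-89533645, minus strand) had the most even set of regions. A region spanned its annotated 5′ end in every list, at chr10:89533133-89533665 (score 7), chr10:89533133-89533811 (score 8) and chr10:89533029-89533830 (score 15). The next lay 2.21, 2.18 and 2.22 kb inside the gene (scores 5, 7 and 10). Another position, at chr10:89527053-89527648, chr10:89527066-89527406 and chr10:89527039-89527492, was 6.29, 6.41 and 6.38 kb inside and scored 50, 19 and 48 (percentiles 94.7, 79.8 and 92.3). Near the 3′ end, 4.65, 4.75 and 4.69 kb inside it, a region scored 15, 20 and 32. Every region with Nr1h4 as its nearest gene, 4 in each list, was thus matched at all doses. The RefSeq start in the promoter table lies inside the gene at chr10:89506658, and the region nearest to it was centred 20.7, 20.6 and 20.6 kb before it.

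The remaining regions of the Nr1h4 window lay past the 3′ end and nearer to Gas2l3, a gene of cytokinesis. One within 137 bp of its end scored 9, 20 and 30 (chr10:89443383-89444302 at 0.1 µM), and one inside it was listed at 0.1 and 1 µM (scores 9 and 17). At least as many regions as in this window were found for 3.91%, 4.61% and 5.10% of protein-coding genes.

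Nr5a2 (chr1:136842562-136960448, minus strand), the longest of the 8 genes at 118 kb, had 4, 1 and 4 regions. The best ranked lay 3.19, 3.19 and 3.29 kb past the 3′ end, at chr1:136839116-136839633, chr1:136839121-136839620 and chr1:136838970-136839576. Its scores of 39, 33 and 38 ranked at percentiles 91.3, 92.7 and 88.6, the only region of this window listed at all doses. In the body, a site 44.8 kb from the 5′ end scored 6 at 0.1 µM and 17 at 1 µM. The other body regions were listed once each, at 11.3 and 73.6 kb (scores 8 and 5, 0.1 µM) and at 101 kb (score 10, 1 µM). At the 5′ end the 1 µM list held chr1:136960563-136960811 (score 9, percentile 31.6), centred 239 bp upstream and over the promoter printed above. No list held a region within 1 kb of the inner RefSeq start.

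Hnf4a (chr2:163506811-163572907, plus strand), the central receptor of the network, had no region in its body of 66.1 kb or at its ends in any list, and neither of its 2 RefSeq promoters was touched. The one position listed at every dose was chr2:163494059-163494560, chr2:163494038-163494392 and chr2:163494124-163494502, inside the neighbour R3hdml and 12.5, 12.6 and 12.5 kb before Hnf4a (scores 15, 18 and 12). It lay 505, 411 and 509 bp from an end of Hnf4aos, a long noncoding RNA gene on which the counts by gene did not rest. The others lay within 134 bp of an end of Fitm2 at 0.5 and 1 µM (scores 10 and 21) and within 35 bp of an end of Ttpal at 0.1 and 1 µM (scores 5 and 6). Every region of this window was nearer to another protein-coding gene.

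Across the 8 windows, 20, 19 and 26 regions had the named gene as their nearest protein-coding gene and 7, 7 and 10 had another. Member regions were as wide as the rest of the lists at the lower doses (median 337 and 327.5 bp against 339 and 324 bp) and wider at 1 µM (401 against 353 bp). Their median scores were 9, 8 and 11, against 11, 10 and 13 over all regions. Of the 27, 26 and 36 regions, 4, 6 and 6 ranked above percentile 80 of their list, all at Foxa2, Cebpb, Nr5a2 or in the window of Nr1h4. By construction a fixed share of every list ranks above that percentile, so these counts alone show no concentration of strong regions.

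Other liver transcription factor genes, a list of 57 that includes Onecut1, Prox1, Ppara and Rxra, held a region midpoint within 1 kb of either end in 12, 7 and 19 cases (21.1%, 12.3% and 33.3%), beside the backgrounds of 19.1%, 18.4% and 22.4%. They had a region at an end in all lists in 6 cases, in 2 lists in 7, in 1 list in 6 and in none in 38. The background is known per list only, so counts by number of lists, here or for the 8 genes, cannot be set beside it. The 6 were Nr1d2 (REV-ERBβ, a clock repressor, scores 7, 27 and 60), Stat3 (4, 16 and 18), Tbx3 (15, 5 and 10), Tcf7l2 (4, 10 and 15), Zhx2 (16, 7 and 6) and Foxj3 (15, 6 and 5). Zhx2 lies on chromosome 15, and the density of the chromosome was not set beside any of the 6. Of the other C/EBP genes, Cebpd had a region at 0.1 and 1 µM (scores 8 and 14) and Cebpg at 1 µM (score 7). Measured by the summed difference in region counts over the 3 lists, the gene of this list closest to Foxa2 was Foxk1 (5, 4 and 5 regions, difference 4), that closest to Nr5a2 was Yap1 (3, 1 and 4, difference 1), and those closest to Foxa1 were Nr2f2 and Foxm1 (both 2, 0 and 3, difference 1). Within this list Cebpb had none near it, since the closest, Zhx2 and Foxk1, differed by 14. Genes of the other lists came nearer to Cebpb. The neighbours Krt8 and Krt18 had 5, 10 and 11 and 4, 11 and 11 regions, and Ncoa3 had 4, 10 and 11. Cebpa had the same empty window as 14 of the 57.

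**Figure D5:**
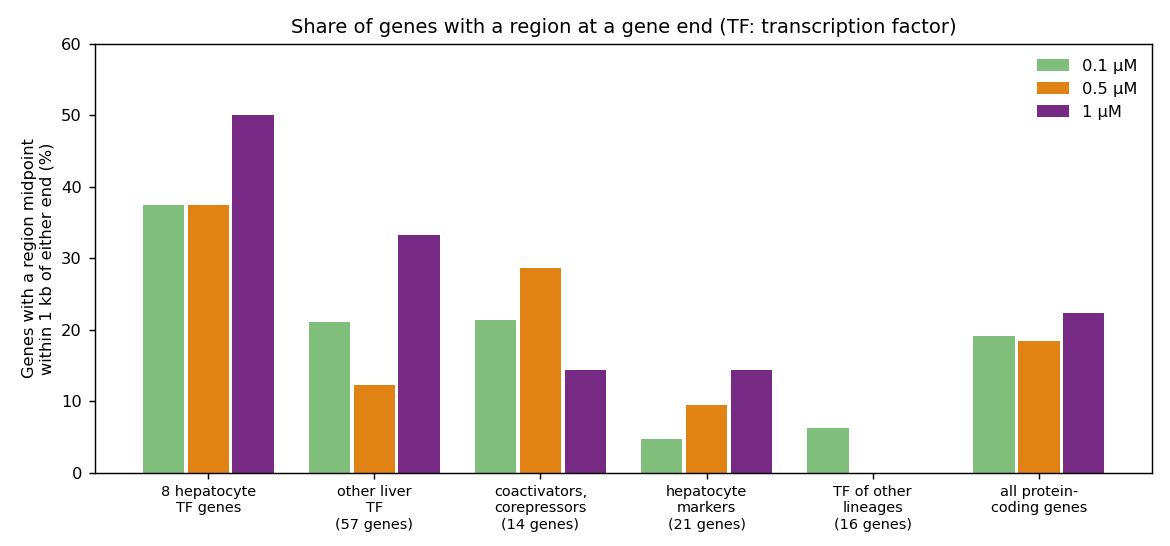
Share of genes (vertical axis, %) with a region midpoint within 1 kb of either gene end, by gene list and dose. The 8 genes, of which 3, 3 and 4 have such a region, stand above all protein-coding genes, which are at 19.1%, 18.4% and 22.4%, and transcription factors of other lineages below them at 6.25%, 0% and 0%.

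Hepatocyte markers and targets of these factors, such as albumin, transthyretin, apolipoproteins and bile acid enzymes, held few regions at their ends. Of 21 genes matched by symbol, 1, 2 and 3 had one (4.76%, 9.52% and 14.3%). The share of all protein-coding genes was 19.1%, 18.4% and 22.4%, and the difference from it was not tested in so short a list. Those with a region were the keratin genes Krt8 (scores 10, 9 and 10) and Krt18, and Pck1 of gluconeogenesis at 1 µM. Both keratin genes lie on chromosome 15, whose density was not set beside them. The other 18 had none in any list. Transcription factors of other lineages, such as Pax6, Myod1 and Spi1, had 1, 0 and 0 of 16 (6.25%, 0% and 0%), beside the same shares of all genes. The 1 was Cdx2, an intestinal factor, at 0.1 µM (score 5). A region list shows no expression, so the label of the line was not checked by these counts beyond this.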

How the data were processed

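ATAC-seq of Hepa-1c1c7 cells was deposited as 1 BED list of regions per treated dose. The authors' deposited score, the fifth column, is a whole number from 4 to 520 (0.1 µM), 240 (0.5 µM) or 485 (1 µM) without a stated scale. The submitters' processing notes name Bowtie2, Picard, MACS2 and mm10, with no version or role. The names of the deposited lists carry a q label and the words filtered, BL and unique. Beyond these labels, the sources used here do not explain the threshold or the filters, nor give the use of the control, the Tn5 read shift, duplicate removal or whether libraries were pooled, and the depth is unknown. Groups came from the labelled chromium dose.

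Starts were made 1-based. Regions sharing at least 1 bp with a gene body and 50 kb either side were counted, and a gene end was called when a midpoint lay within 1 kb (Python 3.11.15, pandas 2.3.3, numpy 2.4.6). Genes, strands and promoters came from RefSeq tables of GRCm38.p6. Strand was taken from the promoter table. Counting was tested on simulated data. Chromosome lengths were not used here, so the background density comes from the merged windows of protein-coding genes. No test was made, since each dose has 1 list and no replicate error. The members and lists were chosen with earlier results of these data known. All 8 genes are named. Their regions are given where nearest to the 5′ end, at an end, in the body (up to 5) or best ranked. Genes of the fixed lists are named when listed at an end at every dose, and neighbours with a region within 1 kb. Hnf4aos, 9030622O22Rik, A530013C23Rik, R3hdml, Cebpd, Cebpg, Krt18, Ncoa3, Pck1 and Cdx2 were named after their values were seen. Alternatives were the flank, the end distance, the midpoint, the 5′ end or RefSeq start, and the stronger or wider 50% of each list. No genome sequence was used here, so only promoters are printed. A gene and a motif of the fixed lists are not reported here.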

Additional observations from a re-analysis of the deposited data

How the results depend on the processing

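Of 81 recomputed values, 53 stayed close to the reported ones, that is, counts within 1.5 times and densities within the 95% counting interval, among them every count of genes with a region in the window. With a flank of 100 kb the 8 windows held 46, 45 and 56 regions in order of dose, and with 10 kb 16 at 0.5 µM. Regions per 100 kb rose to 4.23, 3.56 and 5.56 with 10 kb. No background density was set beside the values at this flank or in the cut lists that follow, so the rise is not a trait of the 8 genes. In the stronger 50% of each list by score the windows held 11, 10 and 17 regions (1.01, 0.918 and 1.56 per 100 kb), in the wider 50% 13, 13 and 22 (1.19, 1.19 and 2.02), as lists cut to 50% must hold fewer. Members with a region at a gene end fell from 3 to 1 at 0.5 µM in the stronger 50%, where the share of all protein-coding genes fell from 18.4% to 10.9%. The other liver factors with a region at an end numbered 4, 2 and 7 of 57 in the stronger 50% (11.4%, 10.9% and 13.5% of all genes), 7 and 8 in the wider 50% at 0.1 and 1 µM (13.0% and 15.0%), and 6 and 11 with the 5′ end only at these doses (18.7% and 22.0%). Within 1 kb of a RefSeq start, an alternative chosen after seeing the data, they numbered 6 at 0.1 µM, and the members 3, 2 and 4, without Nr1h4 at any dose and with Foxa1 at 0.1 and 1 µM (20.2%, 19.4% and 23.8% of all protein-coding genes in the promoter table). No library could be left out, since each list serves both libraries of its dose. No paired analysis was possible because the labels give no replicate numbers and each dose has 1 list. The unknown depth limits what a missing region can show.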

Other observations

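Coactivator and corepressor genes, which encode the partners of the nuclear receptors and C/EBP factors, held a region midpoint within 1 kb of either end in 3, 4 and 2 of 14 cases in order of dose (21.4%, 28.6% and 14.3%, beside 19.1%, 18.4% and 22.4% of all protein-coding genes). Kmt2d, a histone methyltransferase of enhancers, was the member listed at every dose (scores 9, 6 and 5). Its gene lies on chromosome 15, whose density was not set beside it.

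The region at an end of Cebpg at 1 µM (chr7:35056510-35056736, score 7) lies on the far side of the Cebpa window, outside its 50 kb flank. It was listed at no other dose.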
